A study of Mus musculus with 18 samples.

Results

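Broad H3K9me3 domains that were still marked after loss of TRIM28 were examined in mouse embryonic stem (ES) cells. H3K9me3 is histone H3 trimethylated at lysine 9, measured by chromatin immunoprecipitation and sequencing (ChIP-seq). A domain entered the set when it was called in wild-type cells over at least 5000 bp, overlapped a region called in knockout cells by at least 1 bp, and overlapped no TRIM28 peak called in wild-type cells over input. The rule kept 778 of the 37002 wild-type H3K9me3 regions, and 994 of those 37002 reached the width. Of the other broad regions, 176 overlapped a knockout region and a TRIM28 peak, and 40 overlapped no knockout region. The width, the overlap with the knockout list and the absence of a TRIM28 peak are measured values, and the domains were selected on them, so these values are given below as a description.

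The study compared wild-type cells with cells lacking TRIM28 (also called KAP1) and measured chromatin and RNA. H3K9me3 and TRIM28 were mapped in ES3 cells of the C57BL/6 strain, wild type cultured for 4 days or knockout 4 days after induction of a CRE recombinase that responds to 4-OHT. Messenger RNA was sequenced in 4 libraries: wild-type and knockout ES3 cells at day 4, and C57BL/6 mouse embryonic fibroblasts (MEFs), wild type at day 5 or knockout 5 days after CRE induction. ES cells were grown on gelatin in serum with leukaemia inhibitory factor, which keeps them undifferentiated. All compared groups are cultured cells of 1 strain, and whether the wild-type cells carried the CRE or received 4-OHT is not given in the sources used here. Each condition was represented by 1 H3K9me3 region list or 1 RNA library, with duplicate cultures pooled before RNA extraction. No difference below therefore has a replicate check, and no p-value was computed. The labels state that H3K9me3 had gone down without disappearing by the day the knockout cells were collected, so a retained region here is one retained at an early time.

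H3K9me3 is a mark of constitutive heterochromatin, and methyltransferases such as SETDB1, SUV39H1 and SUV39H2 write it. TRIM28 is a corepressor without DNA-binding specificity of its own: KRAB zinc finger proteins bring it to retrotransposons and other repeats, and it recruits SETDB1. SUV39H enzymes maintain H3K9me3 at pericentric repeats together with HP1 proteins, which bind the mark through a chromodomain. Large clusters of zinc finger genes and recently duplicated gene families are also known to lie in broad H3K9me3 chromatin.

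The promoters of 6 genes that start inside the domains show the kinds of sequence found there. They are the 250 bases that precede the start in RefSeq (GRCm38.p6), with every CpG in capitals, and they were matched to the deposited genes by symbol. Rex2 and Zfp600 are shown because these zinc finger genes come from the largest group of domains and their promoters are nearly the same. Hjurp is shown as an expressed gene wholly inside a domain, Sp140 because it starts in a 35839 bp domain and reaches into the widest one, and Smok2b and Ugt1a1 as genes with RNA at or near 0.
Rex2: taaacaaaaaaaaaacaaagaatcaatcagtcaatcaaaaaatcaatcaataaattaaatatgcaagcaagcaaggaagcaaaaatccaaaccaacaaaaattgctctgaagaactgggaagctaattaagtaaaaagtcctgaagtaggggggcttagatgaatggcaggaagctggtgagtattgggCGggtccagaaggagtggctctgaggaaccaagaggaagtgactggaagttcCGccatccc
Zfp600: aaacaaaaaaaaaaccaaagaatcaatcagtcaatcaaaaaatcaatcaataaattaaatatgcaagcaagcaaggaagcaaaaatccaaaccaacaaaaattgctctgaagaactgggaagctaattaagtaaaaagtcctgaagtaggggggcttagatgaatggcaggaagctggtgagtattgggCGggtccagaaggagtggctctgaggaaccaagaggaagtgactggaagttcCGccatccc
Hjurp: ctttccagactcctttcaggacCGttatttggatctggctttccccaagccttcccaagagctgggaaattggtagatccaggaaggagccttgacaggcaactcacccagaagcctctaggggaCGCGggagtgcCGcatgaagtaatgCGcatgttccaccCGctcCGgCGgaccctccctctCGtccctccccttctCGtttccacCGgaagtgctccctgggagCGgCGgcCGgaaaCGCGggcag
Sp140: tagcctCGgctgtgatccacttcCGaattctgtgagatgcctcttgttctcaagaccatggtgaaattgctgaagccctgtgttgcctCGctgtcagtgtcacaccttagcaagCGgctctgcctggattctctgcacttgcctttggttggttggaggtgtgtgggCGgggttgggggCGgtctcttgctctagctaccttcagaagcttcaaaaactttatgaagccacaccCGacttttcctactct
Smok2b: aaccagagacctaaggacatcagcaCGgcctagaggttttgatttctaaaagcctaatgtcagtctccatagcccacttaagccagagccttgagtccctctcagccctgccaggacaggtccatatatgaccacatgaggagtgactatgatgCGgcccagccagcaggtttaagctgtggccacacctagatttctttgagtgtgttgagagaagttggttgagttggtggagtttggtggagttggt
Ugt1a1: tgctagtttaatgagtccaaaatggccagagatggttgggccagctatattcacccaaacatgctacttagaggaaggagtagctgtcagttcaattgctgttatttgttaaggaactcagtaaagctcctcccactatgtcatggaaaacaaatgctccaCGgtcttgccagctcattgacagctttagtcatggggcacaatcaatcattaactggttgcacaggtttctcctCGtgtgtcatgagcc
Rex2 lies at chr4:147021600-147021849 on the plus strand and Zfp600 at chr4:146156577-146156826 on the plus strand. The first of 2 RefSeq starts of Zfp600 is printed. Hjurp is at chr1:88277580-88277829 on the minus strand, Sp140 at chr1:85600453-85600702 on the plus strand, Smok2b at chr17:13230013-13230262 on the plus strand and Ugt1a1 at chr1:88211709-88211958 on the plus strand. These coordinates are of GRCm38, and all coordinates below are of mm9, the build of the deposited regions.

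Rex2 and Zfp600 shared 249 identical bases over an alignment with 99.2% identity, whereas the second start of Zfp600 was 50.7% identical to the Rex2 promoter. The Rex2 promoter was 88.3% identical to that of Zfp980, 77.4% to that of Zfp987 and 70.1% to that of Zfp534, 3 further zinc finger genes of chromosome 4. Reads from copies this alike can be divided between them, so the RNA values of these genes are uncertain one by one. Hjurp held 16 CpG in its window and 60.8% G or C. Sp140 held 7 CpG, and Rex2, Zfp600, Smok2b and Ugt1a1 held 2 each. Of 45 genes in the RNA table whose start lies inside a domain, 32 were matched to a RefSeq promoter. The median of these 32 was 2 CpG and 46.8% G or C, against 6 CpG and 52.4% over all 32851 promoter windows. At most 3 CpG were present in 24 of the 32 (75%) and in 37.8% of all windows. CpG was searched as the letters CG, which read the same on both strands. The matched genes include copies of 1 family, so the windows are not independent of each other.

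The domains together held 6.94 Mb. Their median width was 6.82 kb and their range was 5.01 to 59.3 kb. The median domain had 89.996% of its bases inside regions of the knockout list, with quartiles at 62.0% and 98.9%. Pooled over all domains, 82.1% of the bases were covered. Complete coverage was found for 133 domains (17.1%), each of which lay inside a single knockout region. Another 256 (32.9%) were covered over at least 90% without being complete, and 253 (32.5%) over 50% to 90%. At the low end, 120 domains (15.4%) were covered over 10% to 50% and 16 (2.06%) over less than 10%. Retained by the rule thus spans everything from an intact domain to a remnant.

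**Figure D1:**
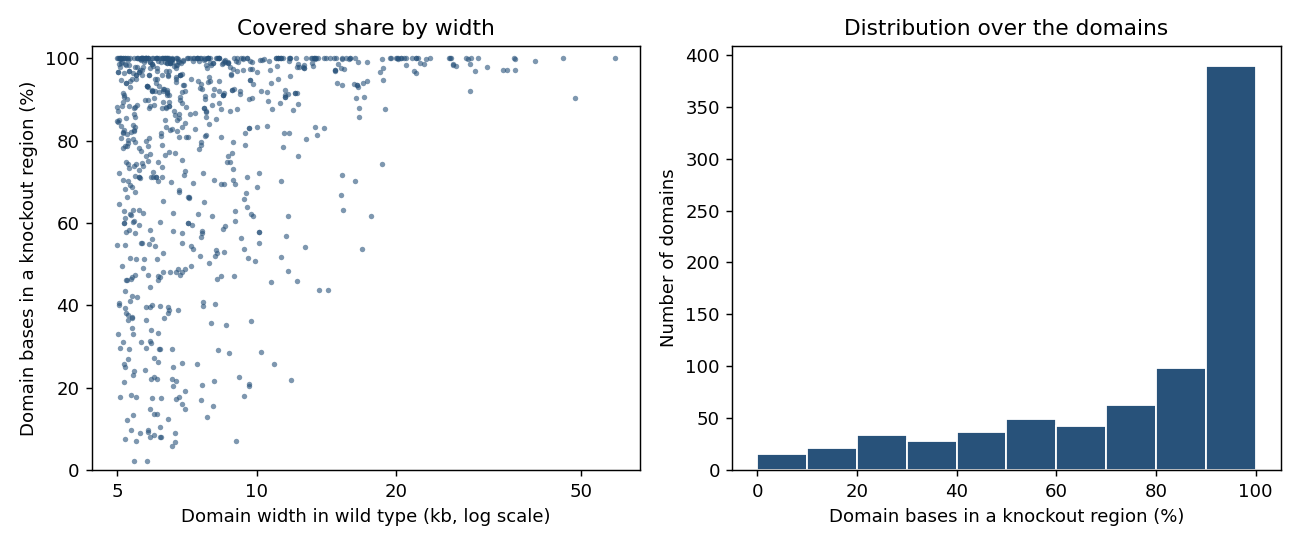
Left, each of the 778 domains by its wild-type width (kb, log scale) and the share of its bases inside a knockout region (%). Right, the number of domains in each step of 10% of covered share. Domains wider than 20 kb all sit above 90%, while the narrowest ones spread over the whole range.

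Wide domains were covered more completely than narrow ones. The median covered share was 80.5% for the 245 domains under 6 kb, 87.8% for the 251 of 6 to 8 kb, and 90.4% for the 162 of 8 to 12 kb. It reached 97.4% for the 78 domains of 12 to 20 kb and 99.95% for the 42 of 20 kb or more. Under 50% was covered in 60, 53, 20, 3 and 0 domains of these 5 width classes in turn. Spearman's rho between width and covered share was 0.26 over the 778 domains, all from the same pair of libraries. Both quantities were used in choosing the domains, and the relation carries no test.

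The domains nearest the width limit differed widely from each other. Just inside it were chr1:184816131-184821136 (5006 bp, 54.7% covered), chr5:95490681-95495686 (5006 bp, 100% covered) and chr7:46393417-46398425 (5009 bp, 84.9% covered). Just outside it were regions of 4987 bp on chromosome 1 (29.8% covered), 4984 bp on chromosome 14 (47.4% covered) and 4983 bp on chromosome 10 (91.4% covered). The ranges of the covered share overlapped on the 2 sides of the limit.

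The widest domain, chr1:87500240-87559572, extended over 59333 bp and was covered completely. It holds parts of Sp100 and Sp140, genes of interferon-inducible nuclear body proteins. A neighbouring domain of 35839 bp over Sp110 and Sp140 (chr1:87462816-87498654) was also covered completely. The next in width was chr11:82938719-82987252, with 48534 bp, 90.3% covered by 9 separate knockout regions and no gene of the RNA table in it. A 45805 bp domain, chr17:13379163-13424967, held Gm10512, Smok1 and Smok2b and was covered completely. The Smok genes encode sperm motility kinases. A 36132 bp domain over the immune receptor genes Cd300ld4, Cd300ld5 and Clm3 (chr11:114874361-114910492) was covered over 97.1%, as was a 34711 bp domain over Hjurp and parts of Heatr7b1 and Trpm8 (chr1:90140535-90175245).

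The least covered domain was chr4:112024010-112029449, where 2.19% of the bases, or 119 bp, were left in the knockout list. Next came domains on chromosome 15 (from 38404400, 2.36%), chromosome 10 (from 21809366, 5.91%), chromosome 11 (from 6697610, 6.89%) and chromosome 10 (from 82935351, 6.98%). None of these 5 overlapped a gene of the RNA table. Only 147 of all 778 domains (18.9%) did, so this does not set the 5 apart.

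A total of 1242 knockout regions overlapped the domains, and 434 of them were themselves 5000 bp or wider. The widest measured 91.1 kb. Of the bases of these knockout regions, 5.69 Mb lay inside the domains and 0.840 Mb outside. A single knockout region met 429 domains (55.1%), and the most divided domain met 9. In the other direction, 43 knockout regions spanned more than 1 domain, at most 3, so some neighbours that were separate in wild type were joined in the knockout list. Over all regions, 766 of 37221 knockout regions and 994 of 37002 wild-type regions reached 5000 bp. The depth of the ChIP libraries and the signal within the regions were not analysed here, so a region covered in the knockout list can still hold less H3K9me3 than in wild type.

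Compared with the other wild-type regions, the domains lay close to more H3K9me3. The median gap to the nearest other wild-type region was 0.738 kb, against 2.23 kb for the 16604 regions under 5000 bp that met the same overlap criteria. Another wild-type region lay within 5 kb of 668 domains (85.9%) and of 62.9% of those narrow regions. The 176 broad retained regions with a TRIM28 peak had a median gap of 0.959 kb and a median covered share of 86.6%, near the values of the domains. The 40 broad regions with no knockout overlap had a median width of 5.72 kb and a median gap of 1.93 kb. A TRIM28 peak lay within 5 kb of 17 of these 40 (42.5%), against 35 of the 778 domains (4.50%), where a peak inside was barred by the rule. With 1 list per condition, these differences have no test.

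Domains were mostly far from gene starts, though less far than narrow retained regions. The median distance to the nearest gene start in the RNA table was 71.5 kb, and 447 domains (57.5%) were more than 50 kb from one. Narrow retained regions had a median of 114 kb, with 68.1% beyond 50 kb, and broad retained regions with a TRIM28 peak one of 61.8 kb, with 53.4%. A gene was overlapped by 147 domains (18.9%) and a gene start lay in 39 (5.01%). Among the narrow retained regions, 15.2% overlapped a gene and 0.476% held a start, and a region that is several times wider has more room for one. Exons, introns and untranslated regions of mm9 were not used here.

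The domains were unevenly spread over the chromosomes. Chromosome 7 held 134 (17.2%), chromosome 4 held 104 (13.4%) and chromosome 12 held 86 (11.1%). These 3 chromosomes held 41.6% of the domains, 22.1% of all wild-type regions and 27.4% of the narrow retained regions. The broad retained regions with a TRIM28 peak had a like share there, 40.9%, with chromosome 12 first (23.3%) and chromosome 7 at 6.25%.

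**Figure D2:**
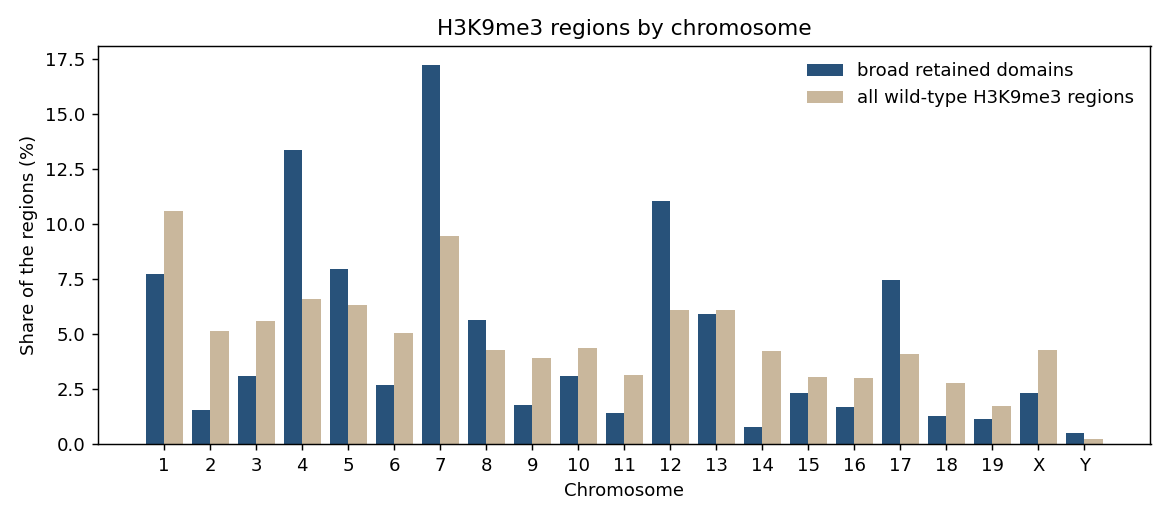
Share of the 778 domains (blue bars) and of all 37002 wild-type H3K9me3 regions (tan bars) on each chromosome, in percent. Chromosomes 4, 7 and 12 stand above their share of all regions, and chromosomes 2 and 14 stand below it.

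When domains no more than 100 kb apart were joined, 543 of the 778 fell into groups. There were 32 groups of at least 5 domains, holding 315 domains (40.5%), and 235 domains stood alone. The largest group lay at chr4:145235110-146808481, with 62 domains over 1573 kb. Domains made up 39.9% of that span, all wild-type regions 69.1% and knockout regions 64.5%. Of the bases in the 62 domains, 93.8% were covered in the knockout list, and the least covered of them still reached 72.2%. The span also held 8 wild-type TRIM28 peaks, which lay between the domains. Its genes are a zinc finger cluster: Zfp980, Zfp992, Zfp987, Zfp600, Rex2 and Zfp991, with the short genes Gm13034 and Gm13238.

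**Figure D3:**
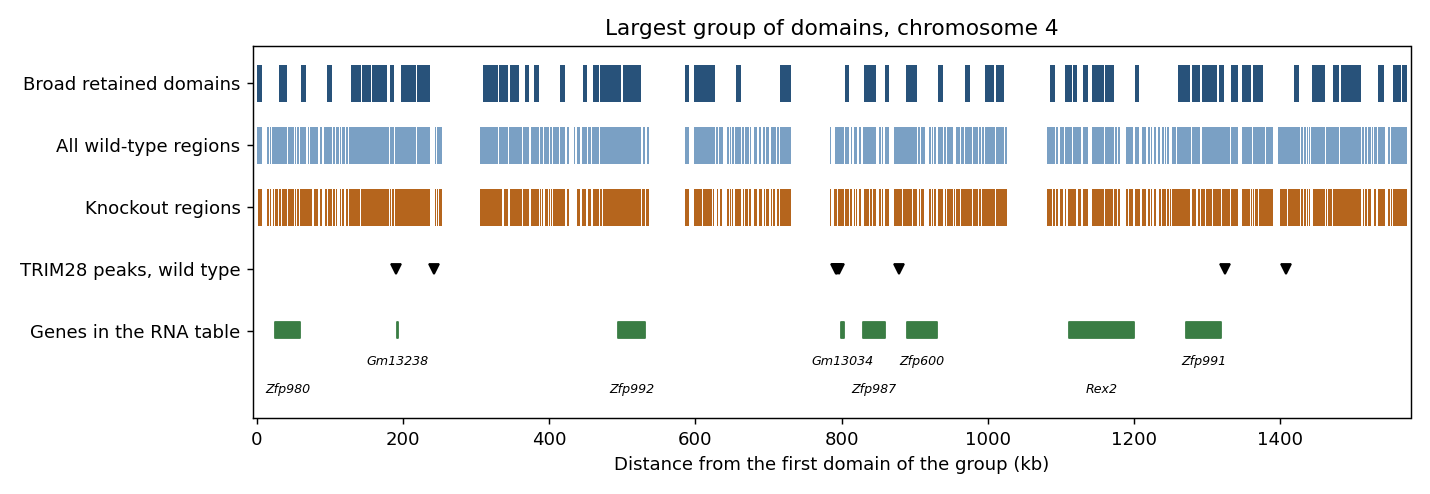
Map of the 62-domain group on chromosome 4, drawn to scale in kb from the first domain. Rows show the domains, all wild-type regions, the knockout regions, the 8 TRIM28 peaks of wild-type cells (triangles) and the genes of the RNA table, where 1 bar stands for genes with the same coordinates. Knockout regions follow the wild-type regions along nearly the whole span.

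The other groups held different kinds of genes, or none. A group of 22 domains at chr17:6221329-6909860 was 97.5% covered and spans Tulp4, a tubby-like protein gene, with Sytl3, Tmem181a, Dynlt1b and Dynlt1c. Another of 16 at chr17:13216925-13738694 was 98.4% covered and spans Smok1, Smok2b, Smok4a, Tcp10c and Tcte2, genes with testis roles. On chromosome 5, 11 domains at chr5:14901976-15222158 were 99.2% covered and hold Speer4c, Speer4d and Speer7-ps1, of a family of spermatogenesis-associated glutamate-rich proteins. On chromosome 1, 10 domains at chr1:84970330-85343697 were 98.5% covered around A530032D15Rik, C130026I21Rik and Csprs, and 6 domains at chr1:87346883-87559572 were 99.4% covered around the Sp100 family. No gene of the RNA table lay in 14 of the 32 groups, among them the group of 12 domains at chr7:33431962-33850460.

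Coverage was not high in every group. It was 95% or more in 17 of the 32 groups and under 80% in 6. The lowest was 34.9%, in 5 domains at chr1:180090570-180233604. A zinc finger group on chromosome 13, 8 domains at chr13:62058099-62495136 over Zfp808 and Zfp934, was 50.6% covered, with single domains down to 12.9%. Wild-type regions filled 36.8% of that span and knockout regions 15.6%. The zinc finger groups of chromosomes 4 and 13 therefore differed in coverage, 93.8% against 50.6%. Whether they differ beyond the spread between replicates was not tested.

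RNA was read as RPKM, the authors' read numbers divided by transcript length and by library size, and a gene was called measured where the wild-type or the knockout library reached 1 RPKM. Ratios are log2 of knockout over wild type after adding 1 RPKM to both, which understates changes of low genes, and a gene was counted as higher or lower from 2-fold on this scale. Trim28 had 1051 RPKM in wild-type and 37.2 RPKM in knockout ES3 cells, 3.54% of the wild-type level. The 10 ES cell markers of a fixed list were all measured, at 40.7 to 820 RPKM in wild type and 18.7 to 494 RPKM in knockout cells, and 5 of them were lower. All 8 primitive endoderm markers were higher, with a summed level of 27.9 RPKM in wild type and 827 RPKM in knockout cells. The 4 measured trophoblast markers were higher as well, with a list sum of 12.0 against 353 RPKM. Most of the knockout sum came from Krt8 (179 RPKM) and Krt18 (164 RPKM). Among 8 fibroblast markers, 5 were measured and 3 were higher, with sums of 54.5 and 320 RPKM, of which Vim alone had 51.1 and 301 RPKM. Of 3 measured neural markers 1 was higher and 1 lower, and of 2 measured mesoderm markers 1 was higher. Over all measured genes, 12.5% were higher and 3.18% lower. The part of these other cell types in the results on domain genes was not tested, and in bulk RNA fewer cells of a type and less RNA per cell cannot be told apart.

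Genes overlapping the domains had little RNA in ES3 cells, and those that were measured more often had higher values in the knockout than lower ones. Of 17818 genes, 116 overlapped a domain, and 56 of these (48.3%) were measured, against 67.5% of all genes. The median wild-type level of the 116 was 0.209 RPKM, against 2.49 RPKM over all genes, and 22 of them (18.97%) were listed at 0 in wild type, against 9.51% of all. Genes over narrow retained regions also had little RNA, with 51.6% measured, a median of 0.397 RPKM and 15.7% at 0. Low RNA was thus not particular to the domains. Over broad retained regions with a TRIM28 peak, 68.4% were measured and the median was 1.33 RPKM. Of the 56 measured genes, 15 were higher (26.8%) and 0 lower, where 12.5% of all 12024 measured genes were higher and 3.18% lower. Their median log2 ratio was 0.52, against 0.08 over all, with 46 genes above 0 and 10 below. Chromosome 4 carried 8 of the 15 higher genes, from 13 measured there. Without it, 7 of 43 measured genes were higher (16.3%) and none lower, at a median of 0.45. Of the 32 of these 43 with at least 1 RPKM in wild type, 2 were higher (6.25%, against 8.32% of all such genes). Their median was 0.31, against 0.01 over all such genes. Gene copies with the same coordinates were listed more than once, and counting each position once left 13 higher genes of 53.

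Many of the higher genes started from almost no RNA. Wild type was under 1 RPKM in 9 of the 15 and listed at 0 in 7. Among the 41 domain genes with at least 1 RPKM in wild type, 6 were higher (14.6%, against 8.32% of all such genes) and the median log2 ratio was 0.45, against 0.01 over all. Chromosome 4 held 4 of these 6, among them Zfp991 and the transcript NM_027285 at the same position. A gene that was measured only through its knockout value had a ratio above 0 by construction, so the count over the 56 does not stand for all 116. The domains of the 15 higher genes were covered over 93.8% in the median, and 14 of the 15 had domains covered over 90% or more. The 15th, Susd4, had a domain covered over 54.7% and 3.77% of its span in it. Its RNA was 5.00 RPKM in wild type and 12.9 RPKM in knockout cells (log2 ratio 1.22). For the 41 other measured genes the median coverage was 87.6%. All these domains overlap a knockout region by the rule, so the coverage is a description.

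**Figure D4:**
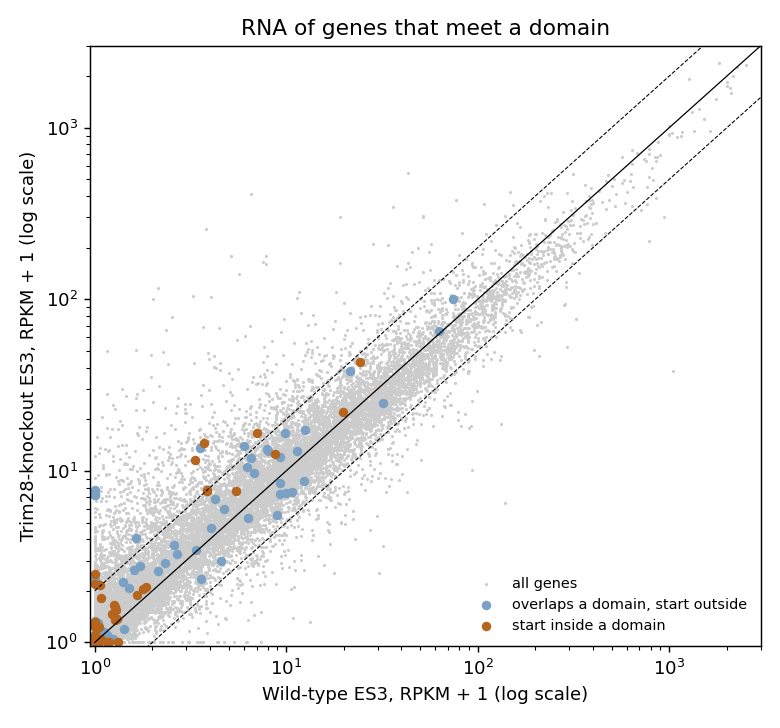
RNA of ES3 cells in wild type and knockout (RPKM + 1, both axes log scale). Grey points are all genes, blue points are genes that overlap a domain with their start outside, and orange points have their start inside, with the solid line at equal values and dashed lines at 2-fold. Most domain genes lie at the lower left, and 15 measured ones lie on or above the upper dashed line with 0 below the lower one.

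Genes with their start inside a domain were lower still in wild type. There were 45, with a median of 0.074 RPKM, and 14 were measured. Of these 14, 7 were higher, 0 lower, and all 14 had a ratio above 0, with a median of 1.00, where 12.5% of all measured genes were higher. In 5 of the 14 only the knockout library reached 1 RPKM, which fixes a ratio above 0. Of the 9 with at least 1 RPKM in wild type, 4 were higher (44.4%, against 8.32% of all such genes), and the median of the 9 was 0.99. The 4 were Zfp991, NM_027285 at the same position, Zfp600 and Sfi1. All but Sfi1 lie in the zinc finger group of chromosome 4, so they are not independent. The 71 genes that overlapped a domain with their start outside had 42 measured and 8 higher, with a median of 0.46. Of the 32 of them with at least 1 RPKM in wild type, 2 were higher (6.25%, against 8.32% of all such genes). Where domains filled at least 50% of a gene's span, 22 of 48 genes were measured and 9 were higher, with a median of 0.81. Of the 13 of these with at least 1 RPKM in wild type, 4 were higher (30.8%, against 8.32% of all such genes). They were Zfp992, Zfp991, NM_027285 and Sfi1, again all but Sfi1 from that group. For comparison, narrow retained regions overlapped 1538 genes, of which 793 were measured, 160 higher (20.2%) and 21 lower, with a median of 0.28. The 26 measured genes over broad retained regions with a TRIM28 peak had a median of 0.52, with 3 higher and 2 lower. The domain genes and the latter set thus shared the same median, while 26.8% and 11.5% were higher. Among genes with at least 1 RPKM in wild type, 6 of 41 and 1 of 20 were higher, and 4 of the 6 lie on chromosome 4. With counts this small, the difference was not tested.

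Zinc finger genes were the largest named family in the domains. Of 352 genes with a zinc finger symbol in the table, 10 overlapped a domain (2.84%, against 0.651% of all genes). All 10 were measured and 9 had a ratio above 0, as did 55.4% of all measured genes. All but Zfp180, Zfp808 and Zfp934 lie on chromosome 4, and Zfp808 and Zfp934 share their coordinates. The 10 are therefore not independent, and the comparison rests mostly on 1 chromosome. The median of the 10 was 0.76, against 0.15 for the 295 measured members of the family. By the 2-fold count 3 of the 10 were higher and 0 lower, against 22 and 4 of the 295. The 3 were Zfp992, Zfp991 and Zfp600. Zfp992 (chr4:145729798-145765642) had 2.54 RPKM in wild-type and 12.6 RPKM in knockout ES3 cells, a log2 ratio of 1.94. Domains filled 75.6% of its span and were 96.5% covered in the knockout list.

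Zfp991 (chr4:146506147-146554688) overlapped 5 domains, which filled 83.5% of its span and were 93.8% covered. Its RNA was 2.35 RPKM in wild type and 10.6 RPKM in knockout cells, a log2 ratio of 1.80. The transcript NM_027285, listed at the same coordinates, had 2.74 and 13.6 RPKM. Zfp600 went from 2.88 to 6.79 RPKM (1.01), with its domain 93.4% covered. Rex2 had 2.84 RPKM in wild type and 6.61 RPKM in knockout cells, a log2 ratio of 0.99 that lies just under the 2-fold line. The promoters of Rex2 and Zfp600 printed above are nearly the same, and their RNA levels were close to each other in each library.

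The other zinc finger genes had smaller ratios. Zfp980 had 5.23 and 9.57 RPKM in wild type and knockout, Zfp534 had 6.97 and 12.5 RPKM and Zfp987 had 6.99 and 12.1 RPKM, with log2 ratios of 0.76, 0.76 and 0.72. On chromosome 13, where the domains were less covered, Zfp934 had 0.722 and 1.78 RPKM (0.69) and Zfp808 had 1.69 and 2.27 RPKM (0.28). These 2 genes share their coordinates, chr13:62231276-62274779. Zfp180 was the exception below 0, with 5.31 and 4.31 RPKM (-0.25). In MEFs only 3 of the 10 reached 1 RPKM, and none of these 3 passed 2-fold. Zfp992 was 1.11 RPKM in wild-type and 0.561 RPKM in knockout MEFs, a log2 ratio of -0.44.

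The highest knockout values among genes listed at 0 in wild-type ES3 cells came from Pramel-like genes on chromosome 4, a family known for expression in oocytes, early embryos and germ cells. BC080695 stood at 0 in wild-type cells and 6.69 RPKM in knockout cells, and Gm13043 at 0 and 6.36 RPKM. Gm13040 and Gm13057, at 1 shared position, were both at 0 and 6.25 RPKM. Their domains were 91.2% covered in the knockout list. No fold is given against a value of 0. In both MEF libraries these genes were not measured.

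A 14678 bp domain on chromosome 10 (chr10:57683519-57698196), covered completely, holds a transcript described in the deposited table as Dux. Dux is a double homeobox transcription factor of the early mouse embryo. The transcript, NM_001081954 at chr10:57690605-57691159, was listed at 0 in wild type and 1.49 RPKM in knockout ES3 cells. A noncoding RNA of the same domain, NR_033485, was listed at 0 and 1.20 RPKM. Both values are close to the limit of 1 RPKM, and Dux lies in a repeat array whose copies can share reads.

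Sfi1, which encodes a centrosomal protein, lies almost wholly in 3 adjoining domains. At chr11:3031853-3093466, 94.5% of its span was inside them and 99.99% of their bases were covered in the knockout list. Its RNA was 6.06 RPKM in wild type and 15.7 RPKM in knockout ES3 cells, a log2 ratio of 1.24. In MEFs the ratio was -0.21. Mid1, a microtubule-associated ubiquitin ligase on the X chromosome, had 8.92 and 6.47 RPKM in ES3 cells (-0.41), with its 2 domains together 99.85% covered.

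Of the remaining higher genes, Tulp4 had 0.651 RPKM in wild type and 3.04 RPKM in knockout ES3 cells (1.29), and its domains were 99.1% covered over 14.9% of its span. Speer7-ps1, a pseudogene of the Speer family, was listed at 0 and 1.35 RPKM. Sprr2a1, a small proline-rich protein of cornified epithelia, had 0.064 and 1.18 RPKM (1.03). Below the 2-fold line, Il3ra, an interleukin receptor subunit, had 5.52 and 10.8 RPKM (0.86), and 6820431F20Rik had 23.2 and 41.9 RPKM (0.83). Galnt2, which starts mucin-type glycosylation, was also below that line, with 20.5 and 37.3 RPKM (0.83). Only 0.21% of its listed span lay in a domain, which was 53.6% covered. That span is 4434884 bp, against a median of 31.7 kb over the domain genes. The overlap depends on this listed span, which was not checked.

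Some genes well expressed in wild type also overlapped domains, from wholly inside to a small part of their span. Hjurp, the chaperone that loads the centromeric histone CENP-A, lies wholly in a domain (chr1:90159046-90174208). It had 18.8 RPKM in wild-type and 21.1 RPKM in knockout ES3 cells (0.16), and its domain was 97.1% covered. Drg1, a GTP-binding protein gene that a domain overlaps over 16.1% of its span, had 61.7 and 64.6 RPKM (0.07) with that domain 100% covered. Atp6v1e1, a subunit of the vacuolar proton pump, was the most abundant domain gene, with 72.9 and 100 RPKM (0.45). A domain filled 18.9% of its span and was 39.4% covered.

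**Figure D5:**
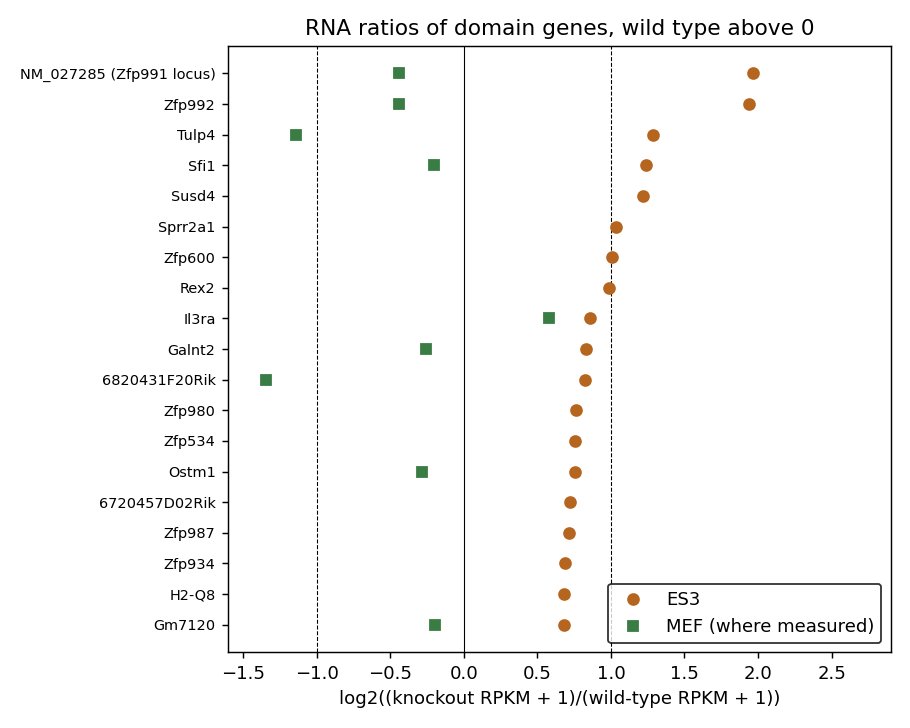
Log2 ratios of RNA, knockout over wild type after adding 1 RPKM, for measured domain genes whose ES3 ratio was at least 0.65 and whose wild-type value was above 0. Circles are ES3 cells, squares are MEFs where the gene reached 1 RPKM, and dashed lines mark 2-fold. Zfp992 and the Zfp991 locus have the largest ES3 ratios, and most MEF squares lie left of 0.

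At the lower end, 0 domain genes were lower by 2-fold in ES3 cells. D2hgdh, which oxidises D-2-hydroxyglutarate, had 7.98 RPKM in wild type and 4.54 RPKM in knockout cells (-0.70). Tcte2 had 2.58 and 1.35 RPKM (-0.60), the lipid transfer gene Osbpl10 3.56 and 2.00 RPKM (-0.60), and the kinase gene Rps6ka2 11.3 and 7.71 RPKM (-0.50). Pisd, which makes phosphatidylethanolamine in mitochondria, had 31.1 and 23.7 RPKM (-0.38). Domains filled 2.59% of the span of Rps6ka2 and 12.3% of that of Pisd, so these are genes that a domain touches rather than fills.

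Many domain genes had RNA near 0 in both libraries. Of the 116, 60 did not reach 1 RPKM in either and 6 were listed at 0 in both. Of 18 genes wholly inside domains, 5 were measured and 16 had under 1 RPKM in wild type. The Sp100 family gives an example in completely covered domains: Sp110 had 0.074 RPKM in wild type and 0.821 RPKM in knockout cells, Sp140 0.294 and 0.540 RPKM, and Sp100 0.036 and 0.038 RPKM. Smok1 had 0.192 RPKM and Smok2b 0.156 RPKM in wild-type cells, and knockout cells had both listed at 0. Cd300ld4, Cd300ld5 and Clm3 lay between 0.013 and 0.015 RPKM in wild-type cells, and knockout cells had all 3 listed at 0. Cyp2a4, one of 2 cytochrome P450 genes overlapping a domain (2 of 83 in the table), was listed at 0 in both. None of the olfactory receptors (175 in the table), vomeronasal receptors (65), protocadherins (48), histone genes (55) or imprinted genes (45) of the lists overlapped a domain. Over all genes the share was 0.651%, about 1 gene in a list of 175, so these zeros set no family apart.

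Genes between the domains of a group were looked at next, since 20 of the 75 genes in the spans of the 32 groups overlapped no domain. Of these 20, 16 were measured, 9 were higher, 0 lower and 7 within 2-fold, where 12.5% of all measured genes were higher. Among the 9, only Tmem181a reached 1 RPKM in wild type. The rest were measured only through the knockout library, which fixes a ratio above 0, so the 2 shares are not alike. The genes named here were chosen after their values were seen. Zscan4c, Zscan4d and Zscan4f, near-identical genes known from early cleavage embryos and from a rare state of ES cells, lie on chromosome 7 in 2 groups of 7 and 6 domains, each about 8.47 kb from the nearest domain. In ES3 cells Zscan4c had 0.002 RPKM in the wild-type and 6.66 RPKM in the knockout library, Zscan4d 0.002 and 6.50 RPKM, and Zscan4f 0.003 and 8.11 RPKM. The domains of these 2 groups were 72.6% and 79.0% covered. Tmem181a, 1.61 kb from a domain of the 22-domain group on chromosome 17, had 5.95 and 19.6 RPKM (1.57). In the group of 20 domains at chr12:88845707-89524235, 84.2% covered, 8 genes had no domain of their own. Pramel51 was listed at 0 in both libraries, and the other 7, among them Gm4027 and Gm5662, lay between 0.123 and 0.553 RPKM in wild-type cells and between 1.42 and 2.62 RPKM in knockout cells. Several of these share coordinates or are close copies, so the 9 are not independent. Other genes had small ratios, such as Gm13034, with 7.59 and 6.96 RPKM (-0.11), and Dynlt1b, with 26.8 and 34.5 RPKM (0.36).

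In MEFs the same genomic intervals, defined in ES3 cells, were read out by RNA only, since H3K9me3 was not analysed in MEFs here. Matched to the domains on its own, the MEF table also gave 116 overlapping genes, not all of them the same as in ES3 cells. Of these, 35 were measured, 0 were higher and 4 were lower. Over all 10805 measured MEF genes, 0.981% were higher and 4.84% lower. The median log2 ratio of the 35 was -0.24, against 0.00 over all. Genes over narrow retained regions had a MEF median of -0.30, with 63 of 661 lower, and genes over broad retained regions with a TRIM28 peak one of -0.18, with 3 of 20 lower. A MEF median below 0 was thus not particular to the domains. The 4 lower genes were Tulp4, which went from 10.2 to 4.08 RPKM (-1.14), 6820431F20Rik (-1.35), 2610005L07Rik (-1.45) and the collagen receptor gene Ddr2 (-1.01). Of 30 genes measured in both cell types, 14 were above 0 in ES3 cells and below 0 in MEFs, 9 were above 0 in both, 5 below 0 in both and 2 the reverse. Tulp4 and 6820431F20Rik had opposite signs in the 2 cell types, and the difference itself was not tested.

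Genes of the H3K9 methylation pathway itself were read from a fixed list, and none of them overlapped a domain. Over all genes the share was 0.651%, so this absence does not set the list apart. Of 33 genes, 32 were in the ES3 table and 31 were measured, with 1 higher and 4 lower and a median log2 ratio of -0.22. Over all measured genes the median was 0.08, and 12.5% were higher and 3.18% lower. The higher one was Suv39h1, a methyltransferase of pericentric H3K9me3, which went from 8.66 to 22.3 RPKM (1.27). The lower ones besides Trim28 were Cbx1, which encodes the HP1 beta protein (88.2 and 37.3 RPKM, -1.22), Cdyl2 (21.3 and 4.83 RPKM, -1.93) and Dnmt3l, a cofactor of DNA methyltransferases (285.9 and 93.3 RPKM, -1.61). Setdb1, the methyltransferase recruited by TRIM28, had 12.9 and 10.7 RPKM (-0.24). In MEFs 28 were measured. None was higher, 2 were lower and the median was -0.47, where 0.981% of all measured MEF genes were higher and 4.84% lower.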

How the data were processed

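H3K9me3 and TRIM28 ChIP-seq regions and RNA values of wild-type and Trim28-knockout cells were taken as deposited. Per the submitters' processing notes, reads were aligned with Bowtie to mm9, and the caller of H3K9me3 regions is not given in the sources used here. These deposited lists hold starts and ends without a score. TRIM28 peak names have the form MACS writes. RPKM values were deposited by the authors, per the file headers, with 1 value per RefSeq transcript (22631 in ES cells, 22630 in MEFs). The ES table's wild-type column was read as ES3, since the knockout column can only be ES3. RPKM tables hold no read counts, so depth is unknown. Among 594 ES transcripts under 0.06 RPKM in both libraries the most frequent log2 ratio was -0.05, and among 1410 in MEFs it was -0.03, the value that equal read numbers give at nearly equal depth. Precision beyond this cannot be given.

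Overlaps were counted in Python 3.11.15 with numpy 2.4.6 and pandas 2.3.3, from 1 bp, and checked on simulated regions. Covered share is the bases of a domain inside knockout regions over its width. Where a symbol had several transcripts, the most abundant by mean RPKM was kept, 1 RPKM was added and genes under 1 RPKM in both libraries were set aside. Domain members, gene lists and tests were chosen with earlier results of these data known. Named domains are the 10 widest, the 5 least and 5 most covered and 3 on each side of the width limit. Named genes are Trim28, genes starting in those domains, the 10 largest and 10 smallest ES3 ratios, the 6 most abundant, the 5 with most covered bases, and up to 4 per list. Other named genes were added after their values were seen. Zinc finger genes were taken by symbol alone. Of the domain genes, 18 have a deposited symbol that differs from RefSeq. Alternatives were other widths, TRIM28 criteria, gene assignments, pseudocounts, filters and folds. Per-sample columns left unused numbered 0.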

Additional observations from a re-analysis of the deposited data

Results flagged for a closer look

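Domain genes had a median log2 ratio of 0.52 in ES3 cells and -0.237 in MEFs, on opposite sides of 0 under the same contrast of knockout against wild type. The same signs were seen for genes over broad retained regions with a TRIM28 peak (0.52 and -0.18) and over narrow retained regions (0.28 and -0.30), so they are not particular to the domains. With 1 library per condition, the difference between the cell types was not tested.

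TRIM28 peaks called in knockout chromatin over input, a list that played no part in choosing the domains, overlapped 20 of the 778 domains (2.57%) and 80 of the 16604 narrow retained regions (0.482%). The median widths were 6.82 kb and 0.878 kb, and a wider region has more room for a peak. In all, the domains held 6.94 Mb and the narrow retained regions 20.4 Mb, so the 2 percentages do not show that peaks were denser in the domains. The 20 include the Dux domain on chromosome 10, the 3 Sfi1 domains at chr11:3025252-3100086, the Cd300ld domain on chromosome 11, the domains of Tcp10b, Tcp10c and Unc93a on chromosome 17, and those of 6820431F20Rik and Mid1. Of the broad retained regions with a wild-type TRIM28 peak, 15 of 176 (8.52%) also met a knockout peak. Trim28 RNA in knockout ES3 cells was 3.54% of the wild-type level. Whether peaks called in knockout chromatin mark bound TRIM28 was not tested.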

How the results depend on the processing

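With 1 library per condition, leaving out a replicate was not possible, and no paired analysis was possible because each group holds 1 library. Region lists carry no signal, so depth and signal loss inside a covered region cannot be read. Of 100 alternative values, 75 stayed within 1.5 times the value given. Counts and shares cannot change sign. The median log2 ratios can, and none of the 17 in ES3 cells or the 10 in MEFs did. The count of 778 domains became 1241, 330 and 173 at width limits of 4000, 7500 and 10000 bp, and the 642 domains covered over 50% or more became 301 and 165 at the last 2 limits. Over the alternatives the median covered share stayed between 84.9% and 97.8%.

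The 116 domain genes became 75 at 7500 bp, 60 at 10000 bp, 45 with starts inside and 196 with starts within 20 kb. The 15 genes past 2-fold in ES3 cells became 27 at 4000 bp (26 higher, 1 lower), 7 with starts inside, 30 within 20 kb (29 higher, 1 lower), 7 with 5 RPKM added, 7 at 3-fold and 7 without chromosome 4, an alternative chosen after seeing the data. Their median log2 ratio of 0.52 became 0.83 at 7500 bp, 1.00 with starts inside, 0.30 with 5 RPKM added and 0.15 without the filter. Of the other settings, counting shared coordinates once was also chosen after seeing the data. In MEFs the 4 lower genes became 2 with starts inside, 7 with 0.1 RPKM added, 1 with 5 RPKM added and 0 at 3-fold, and the median of -0.24 became -0.11 with 5 RPKM added and 0 without the filter. The settings named change which genes or domains enter or the scale itself, and other causes were not tested.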
